A study of Mus musculus with 4 samples.

Results

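The genes described here are 10 genes of Notch signalling, taken by symbol and not by any measured value. They are the ligand genes Dll1, Dll4, Jag1 and Jag2, the receptor genes Notch1, Notch2, Notch3 and Notch4, and the target genes Hey1 and Heyl. All 10 were among the 47729 genes listed per library, and all 10 were among the 18783 genes that passed the filter on low counts. RNA sequencing was run on 4 libraries of mouse lung, all labelled strain BL/6 and genotype Control (Rosa), a genotype the labels do not explain further. The 2 normoxic libraries were pools of 3 mice each, and the 2 Sugen-Hypoxic libraries were pools of 2 mice each, where Sugen is an inhibitor of VEGF receptors and was given together with hypoxia. Ages, dose, oxygen level and duration were not stated in the labels, and the arm with KCNK3 mutations that the series names was not analysed here. Normoxic replicate 1 was all female, normoxic replicate 2 held 1 female and 2 males, and both Sugen-hypoxia pools were all male, so treatment and sex lie largely on the same side.

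Notch proteins are receptors that read contact with a neighbouring cell. A ligand of the Delta (Dll) or Jagged (Jag) type on one cell binds a Notch receptor on the next, the receptor is cut by an ADAM protease and then by gamma-secretase, and its freed inner part joins the DNA-binding protein RBPJ to switch on genes of the Hes and Hey families. In blood vessels, Dll4 is known as a ligand that VEGF induces in endothelial cells, Notch1 and Notch4 as endothelial receptors, and Notch3 as the receptor of smooth muscle cells and pericytes, the mural cells of the vessel wall. Hey1 is a transcriptional repressor known from arterial endothelium, and Heyl is a related repressor known from mural cells.

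Of the 10 genes, 3 fell and 3 rose between normoxia and Sugen-hypoxia, and each role had 1 fall and 1 rise. Among the ligands Dll4 fell and Jag2 rose, among the receptors Notch2 fell and Notch3 rose, and of the target genes Hey1 fell and Heyl rose. The comparison used edgeR's quasi-likelihood test over all genes, and a gene counted as changed when its Benjamini-Hochberg adjusted p was under 0.05. By that rule 11.5% of all genes tested changed, 5.51% as higher and 6.01% as lower. The level ranges of both groups did not overlap for 9 of the 10 genes, all except Notch4, where 61.7% of all genes tested also had ranges that did not overlap. Levels are given as counts per 1000000 (CPM) after scaling of library sizes, and a positive log2 fold change, given with its standard error (SE), means higher after Sugen-hypoxia.

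**Figure D1:**
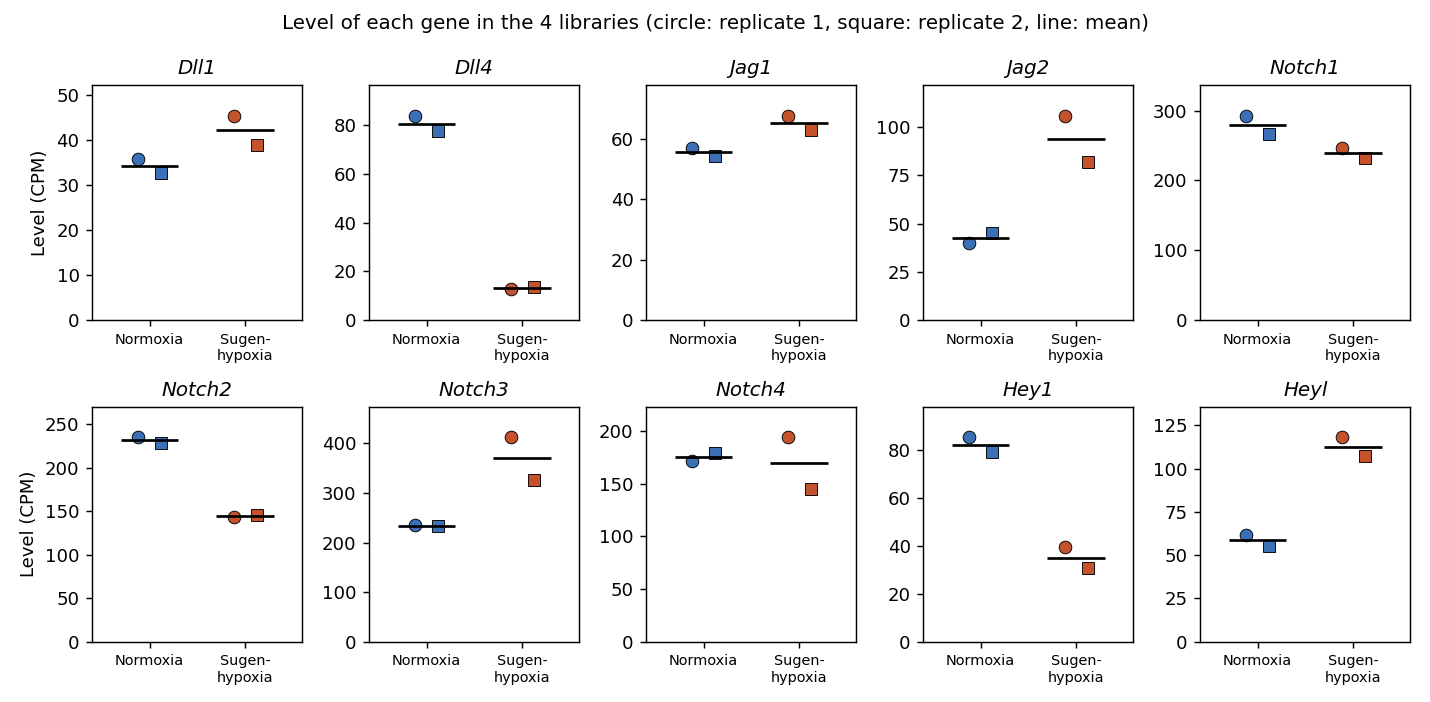
Level of each of the 10 genes in CPM (y axis, from 0) in the 2 normoxic (blue) and the 2 Sugen-hypoxia (red) libraries, with circles for replicate 1, squares for replicate 2 and a line at the group mean. The groups stand apart in Dll4, at 77.5 and 84 CPM against 12.9 and 13.6 CPM, and overlap in Notch4.

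Most of these calls were lost in fits that left out a normoxic library or had sex as a term. They were not lost in fits that left out a Sugen-hypoxia library, where the spread between libraries came from the normoxic pair alone. Those fits called far more of all genes than the fit with all libraries, so passing there adds little. Each group holds 2 pools, so the test has 2 residual degrees of freedom, and edgeR steadies each gene's spread with that of all genes. The p-values measure spread between pools only. Without normoxic replicate 1, Dll4 was the 1 gene of the 10 that passed, beside 0.128% of all genes tested, and without normoxic replicate 2 it was again Dll4 alone, beside 0.577%. When each pool's share of males was added to the fit, with 1 residual degree of freedom left, Dll4 again passed alone, beside 0.0586% of all genes. In that fit the log2 fold changes of the 5 other genes were of about the size they had without it. They were 0.97 for Jag2, -0.63 for Notch2, 0.67 for Notch3, -1.12 for Hey1 and 1.09 for Heyl. Both treated pools were all male, so the sex term rests on the difference between the 2 normoxic pools alone. This fit therefore cannot decide between sex and treatment. On simulated data of this design the share of false calls was above the threshold. Far fewer genes were changed in those data than were called here, and whether that share holds here was not tested. Many small changes and some larger ones were missed there, so a gene that did not pass is not shown to be unchanged. The log2 fold changes of the 6 changed genes kept their direction in all 13 alternatives that were run. This adds little, because all alternatives reuse the same 4 libraries. The level ranges of these genes did not overlap between groups, so leaving 1 library out could hardly reverse a direction. Between the all-female and the mixed normoxic pool the 6 genes differed by -0.16 to 0.17 on the log2 scale. The mixed pool lay towards the treated pools for Dll4, Jag2, Notch2 and Hey1 and away from them for Notch3 and Heyl.

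**Figure D2:**
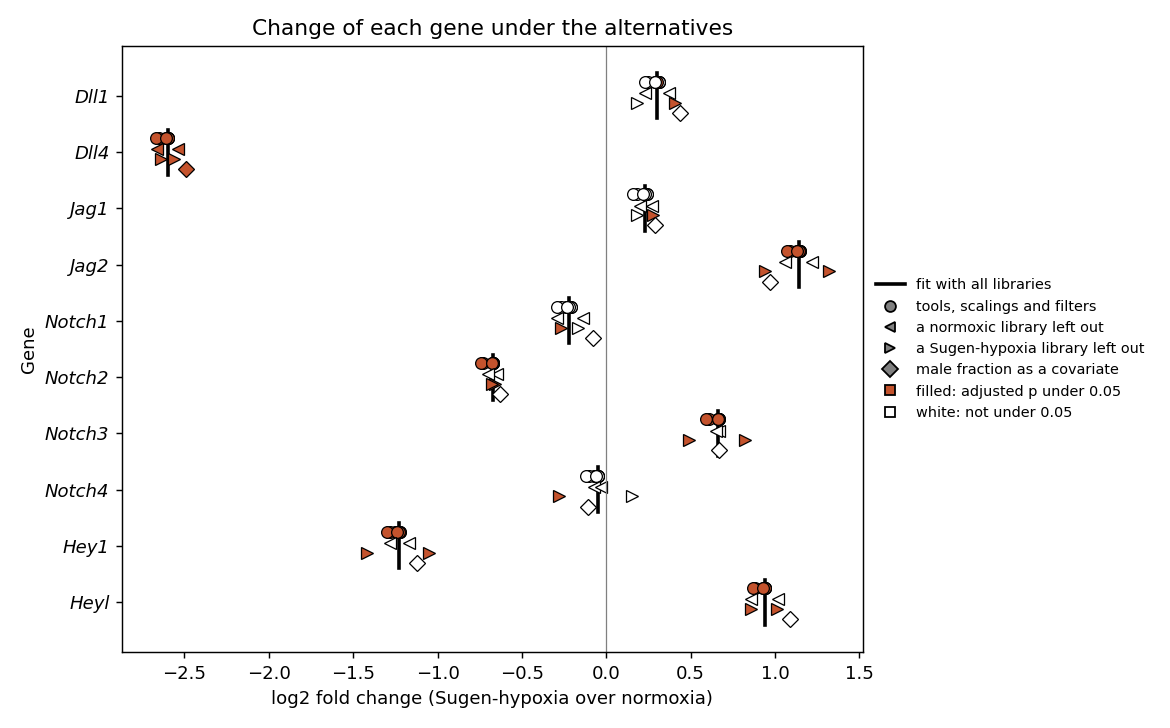
Log2 fold change (x axis) of each gene (y axis) with all libraries (black line) and in 13 alternatives, filled where the adjusted p was under 0.05: other tools, scalings and filters (circles), a normoxic library left out (left triangles), a Sugen-hypoxia library left out (right triangles) and the male fraction as a covariate (diamonds). Dll4 is filled throughout, while Jag2, Notch2, Notch3, Hey1 and Heyl are white with either normoxic library left out and with the covariate.

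The libraries carried the profile of lung. Gene counts summed to between 57319562 and 67135829 per library. Sftpc, the surfactant protein C gene of alveolar type 2 cells, was at 11252 to 12416 CPM, and the kidney gene Umod was at 0 CPM in 3 libraries and 0.124 CPM in the other, which matters because the extraction label names kidney. Xist, the RNA of X inactivation, was at 495 CPM in the all-female pool, 149 CPM in the mixed one, and 0.505 to 0.512 CPM where all mice were male, as the sex labels have it. Of all calls 47.9% were higher, or 1035 higher and 1128 lower, and this share was 35.9% (799 and 1424) when scaled by upper quartiles and 32.6% (765 and 1584) when library sizes were used unscaled.

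Dll4 had the largest change of the 10 genes. It lies on GRCm38 chromosome 2, 119325784 to 119335962, plus strand (ENSMUSG00000027314). It was at 84 and 77.5 CPM in the normoxic libraries and at 12.9 and 13.6 CPM in the Sugen-hypoxia libraries, so both treated pools were low and close together. The log2 fold change was -2.60 ± 0.07 (SE), a 6.08-fold fall, with edgeR adjusted p = 0.000514. In the fits with 1 library left out it ran from -2.66 to -2.54. The values were -2.54 without normoxic replicate 1 (adjusted p = 0.00978) and -2.66 without normoxic replicate 2 (0.0044), and with the male fraction as a covariate -2.49 (0.0237). A non-coding gene on the opposite strand, Gm14207, shares 214 exon bases with Dll4 and fell as well, from 2.49 and 2.27 CPM to 0.65 and 0.637 CPM (log2 fold change -1.88 ± 0.25, edgeR adjusted p = 0.0135). With counts that ignore strand the Dll4 value was -2.61.

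The promoter of Dll4 is shown because this gene changed most, and it was searched on both strands for GTGGGAA, a site of RBPJ, for ACGTG, the core bound by hypoxia-inducible factors, and for GCGTG, the core bound by the aryl hydrocarbon receptor. The sequence is the RefSeq window before the start of the gene (GRCm38.p6, chr2:119325534-119325783, plus strand), 5′ to 3′, with each match in capitals.
Dll4: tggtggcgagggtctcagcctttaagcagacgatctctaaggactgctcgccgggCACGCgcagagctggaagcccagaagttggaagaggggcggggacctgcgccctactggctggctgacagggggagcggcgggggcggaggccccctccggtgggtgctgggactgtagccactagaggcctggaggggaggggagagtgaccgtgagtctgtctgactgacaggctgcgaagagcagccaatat
It holds 1 match, a GCGTG on the opposite strand that begins 195 bases before the start. RefSeq windows were matched for 8 of the 10 genes, with 2 for Dll1 and none for Hey1 and Heyl. In their 9 windows of 250 bases, 8 held GCGTG, 1 held ACGTG and 0 held GTGGGAA, against 28.2%, 16.6% and 5.42% of all 32851 windows. Each window was counted whole, from the RefSeq start. The windows of Jag2 and Notch1 and 1 of Dll1 lay wholly inside the GENCODE gene, and those of Jag1, Notch2 and Notch4 in part. The median GC content was 65.6% in the windows of these genes and 52.4% in all windows, and all of these motifs but the RBPJ site are short and hold a CG pair.

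Jag2, a Jagged ligand known from airway epithelium and endothelium, changed in the other direction. It lies on chromosome 12, 112907819 to 112929776, minus strand (ENSMUSG00000002799). It was at 40.1 and 45.1 CPM in normoxia and at 106 and 81.7 CPM after Sugen-hypoxia, so both treated pools were high but unequal. The log2 fold change was 1.14 ± 0.14, a 2.2-fold rise, with edgeR adjusted p = 0.0101. That p was 0.102 without normoxic replicate 1, 0.0798 without normoxic replicate 2 and 0.436 with the covariate.

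The 2 remaining ligands were higher on average by amounts that did not pass. Dll1 (chromosome 17, 15367354 to 15376872, minus strand), a Delta ligand with roles in immune and airway cells, was at 35.8 and 32.6 CPM in normoxia and 45.4 and 38.8 CPM after treatment, a log2 fold change of 0.30 ± 0.10 with edgeR adjusted p = 0.107. Jag1 (chromosome 2, 137081456 to 137116644, minus strand), a ligand that endothelial and smooth muscle cells both make, was at 57 and 54.4 CPM against 67.6 and 63 CPM, or 0.23 ± 0.06 with adjusted p = 0.0787. Without Sugen-hypoxia replicate 2 the log2 fold changes were 0.41 for Dll1 and 0.28 for Jag1. Dll1 passed with no expression filter (edgeR adjusted p = 0.0376). Neither gene's groups overlapped.

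Set per length, the make-up of the ligand transcripts turned over. Levels of different genes were compared as TPM (transcript levels per length, counts divided by the length of merged exons and scaled to a fixed sum). Dll4 held 47.6% and 46.1% of the summed TPM of the 4 ligands in the normoxic libraries and 8.19% and 10% in the Sugen-hypoxia libraries. Jag2 went from 12.6% and 14.8% to 37.2% and 33.3%, and so from the smallest share of the 4 to the largest. Dll1 and Jag1 held 17.7 to 21.4% in normoxia and 26.1 to 30.6% after treatment. The TPM of Dll4 was 3.78 and 3.11 times that of Jag2 in normoxia and 0.22 and 0.302 times after treatment, so the order of these ligands was the opposite in both treated libraries. The sum of the 4 ligands was 151 ± 2.68 TPM (SD, n = 2) in normoxia and 125 ± 10.6 TPM after treatment. The shares are given without a test, as an exact permutation test of 2 against 2 libraries cannot go below p = 0.33.

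**Figure D3:**
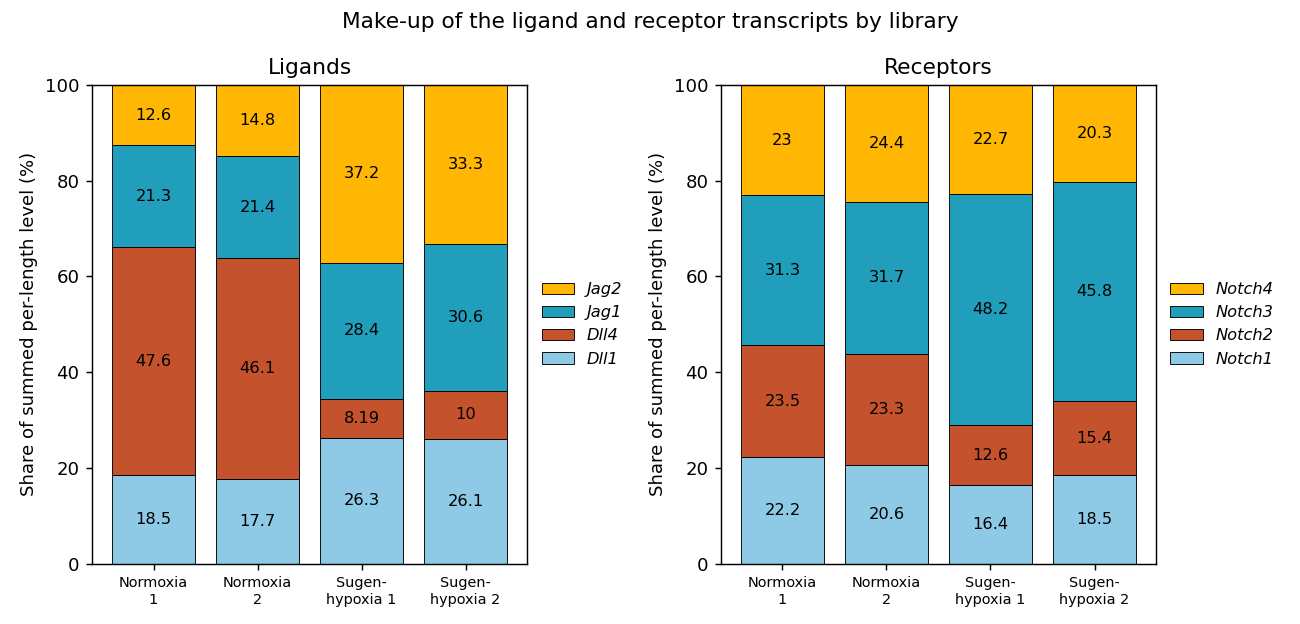
Share of the summed per-length level (y axis, %) held by each ligand gene (left) and each receptor gene (right) in the 4 libraries (x axis). Dll4 is the largest ligand share in normoxia and the smallest after Sugen-hypoxia, and Notch3 goes from 31.3 and 31.7% to 48.2 and 45.8% of the receptors.

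Notch2 fell among the receptors. This receptor is known for marginal zone B cells and is also made by epithelial, myeloid and smooth muscle cells. It lies on chromosome 3, 98013527 to 98150361, plus strand (ENSMUSG00000027878), and was at 235 and 228 CPM in normoxia and 144 and 146 CPM after treatment. Both groups were tight and far apart, with a log2 fold change of -0.67 ± 0.06, a 1.6-fold fall, and edgeR adjusted p = 0.00529. That p was 0.0908 and 0.073 without normoxic replicate 1 and 2, and 0.372 with the covariate. Gm42819 and Gm42820 overlap Notch2 on the same strand, at up to 1.03 CPM. Gm42820 shares 541 exon bases with it (-0.81 ± 0.44, edgeR adjusted p = 0.275). Gm42819 shares 0 and was lower (-2.09 ± 0.47, 0.0465). Strand cannot assign reads from shared bases, and their effect on the Notch2 value was not tested. Marker lists of other cell types moved in both directions. Of 10 defining mural markers 5 rose and 0 fell, and of 5 lung epithelium markers 0 rose and 1 fell. No list covered myeloid cells. The lists of B cells, T cells and ciliated cells moved the way Notch2 did. All 6 B cell markers fell (summed level 271 to 294 CPM in normoxia, 102 to 128 CPM after treatment). Of 6 T cell markers 5 fell (58.3 to 65.1 against 36.5 to 42 CPM), and all 6 markers of ciliated cells fell (498 to 504 against 316 to 329 CPM). No marker of these lists was at 0 CPM in a library, and their part in the Notch2 value was not tested. In bulk tissue, fewer cells of a type and less RNA per cell cannot be told apart. All calls of the B cell, T cell and ciliated cell markers were lost without normoxic replicate 1, and most of them without normoxic replicate 2.

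Notch3 rose. It lies on chromosome 17, 32120820 to 32166852, minus strand (ENSMUSG00000038146), and was at 235 and 233 CPM in normoxia and 412 and 327 CPM after treatment. The normoxic libraries were nearly level and the treated ones both higher but unequal, with a log2 fold change of 0.66 ± 0.12, a 1.58-fold rise, and edgeR adjusted p = 0.0251. It was 0.49 without Sugen-hypoxia replicate 1 and 0.82 without replicate 2, and the adjusted p was 0.195 and 0.194 without normoxic replicate 1 and 2 and 0.561 with the covariate. Mural cell markers moved with it. Of the 10 defining mural markers 5 rose and 0 fell, their summed level was 1195 to 1289 CPM in normoxia and 1652 to 1712 CPM after treatment, and none was at 0 CPM. Against the median log2 CPM of those markers, Notch3 stood higher by 1.63 and 1.44 in normoxia and by 1.64 and 1.40 after treatment, a mean difference between groups of -0.02. That median level moved by 0.67, while the median change over the same 10 markers was 0.27, less than the 0.66 of Notch3. The part of mural cells in its rise was not tested. Rgs5, a pericyte gene, rose from 12.8 and 10.4 CPM to 62.7 and 73.9 CPM (2.56 ± 0.13, adjusted p = 0.00267), Acta2, the smooth muscle actin, from 234 and 280 CPM to 382 and 421 CPM (0.64 ± 0.11, 0.022), and Pdgfrb, the PDGF receptor of mural cells, was at 251 and 252 CPM against 283 and 259 CPM (0.11 ± 0.07, 0.35). The calls of all mural genes but Rgs5 were lost with either normoxic library left out. Rgs5 was 2.73 without normoxic replicate 1 and 2.42 without normoxic replicate 2. With the male fraction as a covariate no mural gene passed, and Rgs5 was 2.87 (edgeR adjusted p = 0.0798).

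The windows before the starts of these 2 receptor genes are shown because the genes changed in opposite directions, with matches in capitals as above. They lie at chr3:98013288-98013526 on the plus strand for Notch2, which ends where the GENCODE gene begins, and at chr17:32166891-32167140 on the minus strand for Notch3 (GRCm38.p6, RefSeq).
Notch2: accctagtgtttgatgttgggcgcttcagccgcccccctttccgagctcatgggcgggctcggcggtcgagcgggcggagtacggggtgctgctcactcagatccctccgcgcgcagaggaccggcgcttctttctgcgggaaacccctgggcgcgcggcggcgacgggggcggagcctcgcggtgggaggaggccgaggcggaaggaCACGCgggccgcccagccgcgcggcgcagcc
Notch3: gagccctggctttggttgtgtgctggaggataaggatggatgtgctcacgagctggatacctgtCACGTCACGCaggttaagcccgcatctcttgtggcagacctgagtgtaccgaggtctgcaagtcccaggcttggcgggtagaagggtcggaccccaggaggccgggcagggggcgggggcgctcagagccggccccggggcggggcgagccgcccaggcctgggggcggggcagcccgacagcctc
Notch2 holds 1 match to GCGTG, which begins 42 bases before the RefSeq start. Notch3 holds an ACGTG at 186 bases and a GCGTG at 181 bases before the start, side by side and both on the opposite strand.

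Notch1 and Notch4 did not pass. Notch1 (chromosome 2, 26457903 to 26516663, minus strand), the receptor with the broadest known use, was at 293 and 266 CPM in normoxia and 247 and 232 CPM after treatment, a log2 fold change of -0.22 ± 0.08 with edgeR adjusted p = 0.121. Without Sugen-hypoxia replicate 1 it was -0.27. Notch4 (chromosome 17, 34564268 to 34588503, plus strand), an endothelial receptor, was at 172 and 179 CPM against 194 and 145 CPM, with the treated pools on either side of the normoxic ones. Its value was -0.05 ± 0.14 (edgeR adjusted p = 0.837). It was -0.28 without Sugen-hypoxia replicate 1 and 0.15 without Sugen-hypoxia replicate 2, so its direction turned on which treated library was used.

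Per length, Notch3 was the highest of the 4 receptors in all 4 libraries. Its share of their summed TPM was 31.3% and 31.7% in normoxia and 48.2% and 45.8% after treatment, while Notch2 went from 23.5% and 23.3% to 12.6% and 15.4%. Notch1 and Notch4 held 20.6 to 24.4% in normoxia and 16.4 to 22.7% after treatment. The TPM of Notch3 was 1.33 and 1.36 times that of Notch2 in normoxia and 3.81 and 2.99 times after treatment. The sum of the receptors was 310 ± 0.363 TPM in normoxia and 318 ± 34.1 TPM after treatment, a difference smaller than the spread between the treated pools.

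Hey1 and Heyl changed in opposite directions. Hey1 (ENSMUSG00000040289, chromosome 3, 8663359 to 8667256, minus strand) was at 85.5 and 79.5 CPM in normoxia and 39.7 and 30.7 CPM after treatment, so each treated library was under each normoxic one. The log2 fold change was -1.23 ± 0.13, a 2.34-fold fall, with edgeR adjusted p = 0.00762. Heyl (ENSMUSG00000032744, chromosome 4, 123233556 to 123249875, plus strand) was at 61.8 and 55.4 CPM in normoxia and 118 and 107 CPM after treatment, a change of 0.94 ± 0.08, 1.91-fold, with adjusted p = 0.00562. The TPM of Hey1 was 2.17 and 2.25 times that of Heyl in normoxia and 0.528 and 0.451 times after treatment, and thus the higher of these repressor genes was the other one in both treated libraries. Without normoxic replicate 1 and 2 the adjusted p of Hey1 was 0.0833 and 0.0637 and that of Heyl 0.0643 and 0.0655, and with the covariate it was 0.364 and 0.276.

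Defining endothelial markers did not fall with Dll4 and Hey1. Of 10 defining endothelial markers 4 rose and 0 fell, with a summed level of 3628 to 3650 CPM in normoxia and 4455 to 5345 CPM after treatment, and the rises numbered 2 with upper-quartile factors and 3 with library sizes unscaled. Cdh5, the cadherin of endothelial junctions, rose from 1142 and 1162 CPM to 1871 and 1599 CPM (log2 fold change 0.59 ± 0.10, edgeR adjusted p = 0.0249). Pecam1, another junction protein, was at 807 and 826 CPM against 1118 and 943 CPM (0.34 ± 0.10, adjusted p = 0.0937). Relative to the median log2 CPM of the markers, Dll4 was at -1.61 and -1.74 in normoxia and -4.75 and -4.38 after treatment, and Hey1 at -1.59 and -1.71 against -3.13 and -3.21. Against the markers the mean differences between groups were -2.89 for Dll4 and -1.52 for Hey1. The part of endothelial cells in these falls was not tested. Cell number and RNA per cell cannot be told apart in bulk tissue. Heyl, set against the mural markers, was at -0.30 and -0.63 in normoxia and -0.17 and -0.22 after treatment. In a wider list of 20 endothelial genes 5 rose (2 with upper-quartile factors) and 2 fell, the latter being Eng, a co-receptor of TGF-beta family ligands (-0.73 ± 0.10, adjusted p = 0.0141), and Ramp2, a partner of the adrenomedullin receptor (-0.72 ± 0.14, 0.0322). Kdr, the VEGF receptor that Sugen inhibits, was at 566 and 557 CPM against 533 and 451 CPM (-0.19 ± 0.10, adjusted p = 0.253). With either normoxic replicate left out, 0 genes of either list passed.

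The order of the per-length levels differed between the groups. In normoxia it ran Notch3 (97.5 ± 1.04 TPM), Hey1 (85.2 ± 3.04), Notch4 (73.4 ± 3.14), Notch2 (72.5 ± 0.373), Dll4 (70.7 ± 2.85), Notch1 (66.2 ± 3.45), Heyl (38.6 ± 2.34), Jag1 (32.2 ± 0.507), Dll1 (27.3 ± 1.37) and Jag2 (20.7 ± 2.04), all SD with n = 2. Of neighbours in that order, the ranges of Notch4 and Notch2 and of Notch2 and Dll4 overlapped. After Sugen-hypoxia it ran Notch3 (150 ± 21.3 TPM), Heyl (71.9 ± 3.53), Notch4 (68.7 ± 12.7), Notch1 (55.2 ± 1.34), Notch2 (44.1 ± 1.32), Jag2 (44.1 ± 7.23), Jag1 (36.7 ± 1.11), Hey1 (35.3 ± 5.66), Dll1 (32.7 ± 2.94) and Dll4 (11.3 ± 0.657). There the ranges of Heyl and Notch4, of Notch2 and Jag2, of Jag1 and Hey1 and of Hey1 and Dll1 overlapped. Dll4 went from the fifth place to the lowest, with no overlap with its neighbour.

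The rest of the pathway was called about as often as all genes. Of 75 other pathway genes 70 were tested, 7 rose and 3 fell, or 14.3% beside the 11.5% of all genes, and their median log2 fold change was 0.03, against -0.0039 over all genes tested. Gxylt2, a xylosyltransferase that extends the O-glucose sugars on EGF repeats such as those of Notch, rose from 4.58 and 3.97 CPM to 33.8 and 34.6 CPM. Its log2 fold change was 3.0 ± 0.10, a 7.99-fold rise, with edgeR adjusted p = 0.000846, and like Dll4 it passed without normoxic replicate 1 (3.11, adjusted p = 0.00978), without normoxic replicate 2 (2.90, 0.00755) and with the covariate (3.21, 0.0365). It was the 1 gene of the 70 that did so. In the same list of 9 sugar-modifying enzymes Mfng, the manic fringe glycosyltransferase of Notch, fell from 32 and 31.9 CPM to 23.5 and 23.4 CPM (-0.45 ± 0.07, adjusted p = 0.0164). Its relative Lfng was at 54.6 and 59.5 CPM against 49.2 and 41 CPM and did not pass (-0.34 ± 0.10, adjusted p = 0.0901).

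Of 10 genes that cut the receptor, 2 rose and 0 fell, and both were ADAM proteases that make the outer cut. Adam10 rose from 158 and 156 CPM to 210 and 227 CPM (0.47 ± 0.06, edgeR adjusted p = 0.0138), and Adam17 from 77 and 75 CPM to 103 and 120 CPM (0.55 ± 0.08, adjusted p = 0.0183). None of the gamma-secretase genes on the list passed in this fit. Psen2, a catalytic subunit gene, was at 36.2 and 33.6 CPM against 28.9 and 28.2 CPM (-0.29 ± 0.07, adjusted p = 0.0561), and Aph1c, another subunit gene, at 11.7 and 11.8 CPM against 9.08 and 8.62 CPM (-0.40 ± 0.10, 0.0578). Both passed as lower in 5 of the 8 alternatives of tool, scaling, filter and counts. Ncstn, a further subunit gene, went the other way, at 131 and 125 CPM against 147 and 148 CPM (0.20 ± 0.06, edgeR adjusted p = 0.075). It passed as higher with DESeq2. Of 17 ubiquitin ligase and endocytosis genes 3 rose and 1 fell. Neurl3, a Neuralized-type ubiquitin ligase gene, rose by 0.83 ± 0.08, its relative Neurl1b by 0.49 ± 0.07, and Numb, an endocytic inhibitor of Notch, by 0.47 ± 0.09. Dtx1, the Deltex ligase gene that is itself known as a Notch target in lymphocytes, fell from 14.2 and 13.3 CPM to 9.47 and 10.3 CPM (-0.47 ± 0.10, adjusted p = 0.0406). Among 7 tested genes of other ligands and secreted modulators, the microfibril genes Mfap2 and Mfap5 went by -0.46 ± 0.06 and 0.55 ± 0.09, and both passed. Besides Gxylt2 none of these genes passed without normoxic replicate 1 or 2.

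The nuclear part of the pathway and the other target genes gave no calls with edgeR and all libraries. Of 19 genes of the RBPJ complex and its partners 0 passed, and Rbpj was at 68.3 and 64.3 CPM against 61.2 and 63.4 CPM (-0.09 ± 0.06, edgeR adjusted p = 0.378). Of 8 other tested Hes, Hey and related target genes, Bhlhe40 and Bhlhe41 included, 0 passed. Hes1, the most widely used Hes target, was at 97.4 and 102 CPM in normoxia and 114 and 80.7 CPM after treatment, so the treated pools lay on either side of the normoxic ones (-0.03 ± 0.16, adjusted p = 0.914). It was -0.30 without Sugen-hypoxia replicate 1 and 0.20 without Sugen-hypoxia replicate 2. Nrarp, a feedback inhibitor of Notch, was at 57.3 and 61.5 CPM against 77.1 and 56.2 CPM (0.17 ± 0.15, adjusted p = 0.503). Without Sugen-hypoxia replicate 2 it was 0.38, and without replicate 1 it was -0.08. Hey2, the third Hey gene, was low at 5.75 and 4.75 CPM against 7.47 and 5.96 CPM (0.35 ± 0.18, adjusted p = 0.26). Under other settings a few genes of these lists did pass. Ep300, a histone acetyltransferase gene, passed as lower with DESeq2, upper-quartile factors, library sizes unscaled, no filter and the mean CPM filter, and Bhlhe41 as lower with DESeq2 and with no filter. L3mbtl3 passed as higher with no filter. With either Sugen-hypoxia library left out far more of all genes were called, and a few genes of both lists passed as well.

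**Figure D4:**
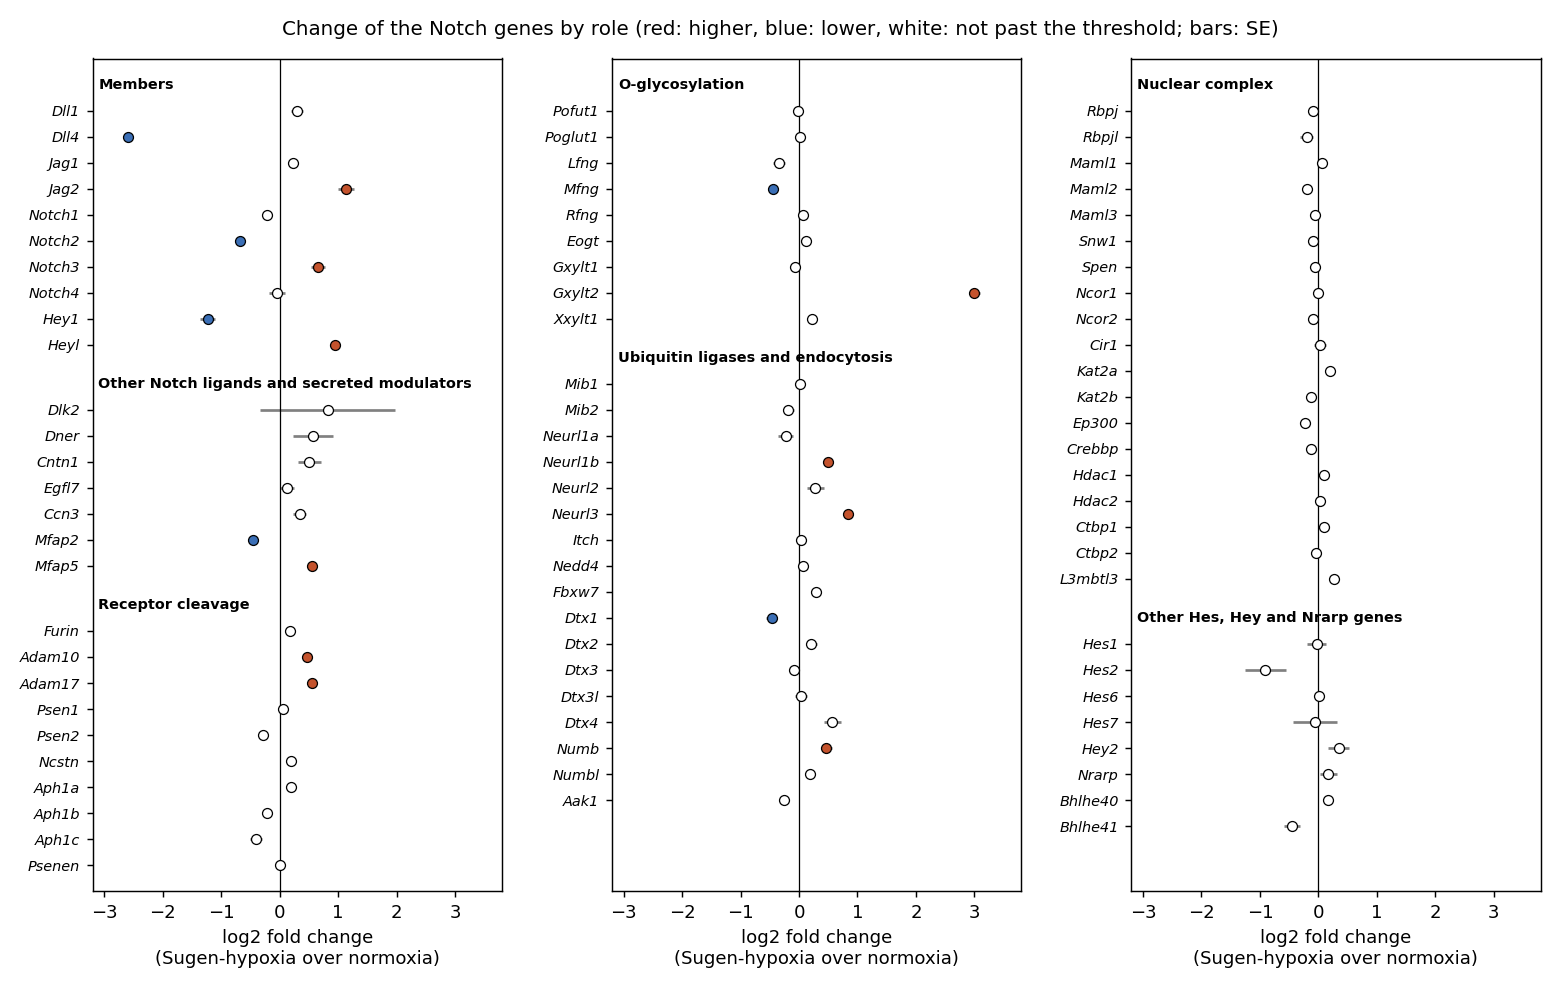
Log2 fold change (x axis, Sugen-hypoxia over normoxia) with its SE for the 10 genes and the 70 other tested pathway genes, grouped by role, red for higher, blue for lower and white for not past the threshold. Dll4 at -2.60 and Gxylt2 at 3.0 stand farthest out, and the nuclear complex and the other Hes, Hey and Nrarp genes are all white.

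Arterial and VEGF-responsive genes went in both directions. Of 14 arterial genes 4 rose and 3 fell, with 7 rises under DESeq2 and with no filter. Efnb2, the ephrin of arterial endothelium and a known target of Notch there, fell from 283 and 253 CPM to 130 and 117 CPM (-1.11 ± 0.09, edgeR adjusted p = 0.00468), while Gja5, an arterial connexin, was at 54.5 and 48.9 CPM against 58.5 and 52 CPM (0.10 ± 0.09, adjusted p = 0.508). Cxcl12, a chemokine of arterial and stromal cells, rose by 1.71 ± 0.16, while Cxcr4, the receptor gene for Cxcl12, fell by 0.82 on the log2 scale. Sox17, an arterial transcription factor, rose by 0.91 ± 0.13. Of 17 VEGF-responsive genes 7 rose and 3 fell. The largest rises that passed were those of Unc5b (1.27 ± 0.09), Pgf (1.23 ± 0.11), Cd34 (0.78 ± 0.06) and Rcan1 (0.74 ± 0.06). Esm1, a gene of sprouting tip cells, fell from 18.9 and 16.6 CPM to 4.82 and 6.13 CPM. Without normoxic replicate 1 none of these genes passed. Without normoxic replicate 2 the calls were lost as well, except those of Efnb2 (-1.19) and Plvap (-1.41), both lower. Plvap codes for the diaphragm protein of capillary openings. With the male fraction as a covariate 0 genes of either list passed. There Efnb2 was -0.95 (edgeR adjusted p = 0.311) and Plvap -1.09 (0.294).

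The genes whose pattern over the 4 libraries was most like that of each changed gene were found among 13843 protein-coding genes, those whose mean level reached 1 CPM. Likeness was the root mean square distance between log2 levels centred on their mean, where a smaller value is more alike. For Dll4 they were Rbfox3 (0.078), Acod1 (0.19) and Gzma (0.2). For Jag2 they were Adamts1 (0.026), Ccn5 (0.036) and Ppfia2 (0.043), of which Ppfia2 did not pass the test (edgeR adjusted p = 0.0797). For Notch2 they were Dynlrb2 (0.011), Stxbp6 (0.016) and Klra2 (0.017), and for Notch3 Klhl5 (0.016), She (0.026) and Nmnat2 (0.027). For Hey1 they were Hpgd (0.03), Fmo1 (0.06) and Cd247 (0.062), and for Heyl Ccnyl1 (0.015), Klf4 (0.03) and Jam2 (0.037). With 4 libraries a step between groups sets most of each pattern, so closeness is largely a like fold change.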

How the data were processed

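The authors deposited raw counts for each gene, in 1 file per library, unstranded and by strand. STAR 2.5.1b, HTSeq and build GRCm38.p4 are named in the submitters' processing notes. No source used here names the annotation or the strand protocol. The antisense column held 20.9 to 24.9 times the gene counts of the sense column and was used. Of 47729 listed genes 47310 matched GENCODE M21, the source of symbols, coordinates and merged exon lengths, which add up all transcripts and so can lower the TPM of genes with long alternative exons such as Notch1. Rows for unmapped (6.45 to 7.55%), multimapping (4.5 to 4.54%), unassigned (7.73 to 9.98%) and ambiguous reads (1.1 to 1.13%) were left out.

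Genes were kept by filterByExpr, scaled by TMM, and tested two-sided with edgeR 4.0.16 in R 4.3.3, the 4 libraries sharing a fit whose single term was the group. Adjusted p-values cover all genes tested, and standard errors were derived from the F statistic. The 13 alternatives comprised DESeq2 1.42.0, limma-voom 3.58.1, other scalings, filters and counts, the male fraction, and each library left out. Genes, lists and tests were chosen with earlier results of these data known. Named genes are all 10 genes, fixed reference genes (Hes1, Hey2, Nrarp, Rbpj, Mfng, Lfng, Adam10, Efnb2, Gja5, Sox17, Pecam1, Cdh5, Kdr, Esm1, Pdgfrb, Acta2, Sftpc, Umod, Xist), up to 4 rises and 4 falls per list, and the 3 nearest genes in pattern. Gm14207, Gm42819, Gm42820, Psen2, Aph1c, Ncstn, Ep300, L3mbtl3, Bhlhe40 and Bhlhe41 were named after their values were seen. Club cell markers (2 of 4 fell) and lung epithelium (1 of 5 fell) were the other lists. Protein sequences were not used here.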

Additional observations from a re-analysis of the deposited data

How the results depend on the processing

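No paired analysis was possible because the replicate numbers only follow record order and pair no libraries. The 3 rises and 3 falls among the 10 genes were the same genes under 7 of the 8 other tools, scalings, filters and counts, and with no expression filter Dll1 was added. With the male fraction as a covariate 0 of the 10 genes passed as higher and 1 as lower, of other pathway genes 1 as higher and 0 as lower, and of all genes 11. With 1 library left out, 0 to 5 of the 10 genes passed as higher and 1 to 5 as lower, other pathway genes numbered 1 to 20 higher and 0 to 14 lower, and all genes called 25 to 5101, where fewer samples leave the spread to a single pair. All genes called were 2163 with edgeR, 3254 with DESeq2 and 3657 with no expression filter. Other pathway genes called lower were 3, and 9 with DESeq2 and with no filter, and 7 with upper-quartile factors, library size only and the mean CPM filter. The cause was not tested. Log2 values that changed sign were those of Notch4 (-0.28 without Sugen-hypoxia replicate 1 and 0.15 without replicate 2), Hes1 (-0.30 and 0.20), Nrarp (-0.08 and 0.38, and -0.08 with unstranded counts) and Sftpc (-0.01) with library size only. Each of the 10 genes had at least 716 counts in a library.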
